A study of Mus musculus with 12 samples.

Results

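The 5-hydroxymethylcytosine (5hmC) landscape of the unstressed mouse hippocampus was described from 3 control peak lists. Together they held 61376 peaks on chromosomes 1 to 19, of 135973 peaks in all 6 lists of the series. Any peaks with 1 bp or more in common, across lists, were joined into 46379 regions, of which 2957 held a peak of every list and are called shared regions. A gene of at least 10 kb counted as a member if at least 1 of its bases lay under a peak in each of the 3 lists. This gave 1472 members of 13404 genes of that length, or 11%. Members were ranked by the share of the gene body under peaks, averaged over the lists, with gene models and expression levels taken from the control RNA table.

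The study examined naïve and acutely stressed male C57BL/6 mice, and only the naïve group was used here. These 5 mice carried no transgene, received no restraint and were briefly anaesthetised with isoflurane before the hippocampus was taken by micropunch. Each of the 3 libraries was made from DNA of at most 2 pooled mice, and one pool held a single mouse, so a library is a pool and not an animal. The age is given as postnatal day 28 in one label and as 7 weeks in another. Expression came from a single control table of RNA from the same naïve group in FPKM, Cufflinks' measure of transcript abundance scaled by transcript length and library size, so these levels have no replicate error.

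5hmC is made when TET dioxygenases oxidise 5-methylcytosine, which mostly sits at CG dinucleotides. The mark is abundant in neurons, where it is known to lie in the bodies of active genes, while active CG-rich start sites mostly lack cytosine modification. In the capture used here, the hydroxymethyl group was tagged with an azide-bearing glucose and biotin, and the tagged fragments were pulled down and sequenced. A peak is therefore a stretch with more captured reads than its surroundings, not a level of 5hmC at single bases.

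The labelled tissue was checked by its marker RNA. Slc17a7, the vesicular glutamate transporter of excitatory neurons, was listed at 118 FPKM, Camk2a at 338 FPKM and Prox1, a defining factor of dentate granule cells, at 23.8 FPKM. Of 18 matched hepatocyte genes 15 lay below 0.1 FPKM, as did 7 of 11 blood genes. However, 2 of the blood genes were at 10 FPKM or more. Calb2, at 10.3 FPKM, was the only gene at 10 FPKM or more among 12 matched thalamic markers, whose median was 4.90 FPKM. Matched markers of hippocampal fields had medians of 3.999 FPKM (11 CA1 markers), 4.96 FPKM (13 CA3 markers) and 6.58 FPKM (13 dentate markers). In these lists 2, 4 and 5 genes were at 10 FPKM or more. The thalamic median lay between those of CA1 and CA3, so it does not set thalamus apart from these fields. How much thalamus the samples held was not tested. Enpp2, expressed in choroid plexus and oligodendrocytes, was at 81.4 FPKM. It was among the 2 genes at 10 FPKM or more of 11 matched choroid plexus markers, whose median was 2.25 FPKM. All values came from bulk tissue, in which fewer cells of a type and less RNA or fewer marked alleles per cell cannot be told apart.

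As examples of promoter DNA, the 250 bases before the start of 4 members are given. The sequences are from RefSeq (build GRCm38.p6, gene strand, 5′ to 3′), with every CG dinucleotide in capitals, because CG is the main substrate of the mark. In 4921511C10Rik (chr3:79212669-79212918, plus strand) and Slc10a6, a bile acid transporter family gene (chr5:103629404-103629653, minus strand), a peak of every list lay on the start site. In Ackr3, an atypical chemokine receptor (chr1:90203730-90203979, plus strand), and Hey2, a repressor downstream of Notch (chr10:30842784-30843033, minus strand), the gene body was among the most covered and no list had a peak within 1 kb of the start.
4921511C10Rik: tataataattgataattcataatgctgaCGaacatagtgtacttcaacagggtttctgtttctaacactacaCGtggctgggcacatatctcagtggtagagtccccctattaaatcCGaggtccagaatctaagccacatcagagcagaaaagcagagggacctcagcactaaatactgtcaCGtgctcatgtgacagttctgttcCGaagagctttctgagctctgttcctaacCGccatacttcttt
Slc10a6: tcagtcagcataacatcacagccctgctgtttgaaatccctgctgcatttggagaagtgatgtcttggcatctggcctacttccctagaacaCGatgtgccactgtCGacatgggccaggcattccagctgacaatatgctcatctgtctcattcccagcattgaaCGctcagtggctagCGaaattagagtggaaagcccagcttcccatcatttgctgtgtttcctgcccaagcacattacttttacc
Ackr3: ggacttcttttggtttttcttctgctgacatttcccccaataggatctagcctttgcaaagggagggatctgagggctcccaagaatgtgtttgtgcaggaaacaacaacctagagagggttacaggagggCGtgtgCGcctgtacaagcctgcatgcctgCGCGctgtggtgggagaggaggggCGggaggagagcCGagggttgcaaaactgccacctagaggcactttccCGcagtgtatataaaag
Hey2: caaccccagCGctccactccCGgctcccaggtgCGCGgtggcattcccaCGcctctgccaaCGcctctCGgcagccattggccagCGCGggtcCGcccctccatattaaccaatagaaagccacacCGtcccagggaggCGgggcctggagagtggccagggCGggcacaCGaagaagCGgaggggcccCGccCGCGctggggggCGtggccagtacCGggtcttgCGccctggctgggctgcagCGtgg

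The 4 windows held 6, 4, 7 and 22 CG dinucleotides in that order. CG reads the same on both strands, and 89.8% of 8540 matched promoter windows of this length held at least 1. All coordinates that follow are those of the deposited files (build mm9), which differ from the RefSeq build of the printed windows.

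The 3 control lists shared only a small part of their peaks. They held 17176, 27897 and 16303 peaks, which covered 16.8, 30.1 and 16.7 Mb, and control replicate 2 was the largest. Of the 46379 regions, 74.2% held peaks of 1 list, 19.5% of 2 lists and 6.38% of all 3. Shared regions had a median length of 1288 bp and ranged from 477 to 5244 bp. The bases covered in every list added up to 2.70 Mb, or 0.109% of the 2471 Mb used.

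The part of each list that fell in shared regions was 17.3%, 10.7% and 18.2% of peaks. Peaks carry the authors' own score, which started at 50 in each list. Peaks in shared regions had median scores of 71.5, 80.2 and 71.7 in the 3 lists, against 58.5, 60.8 and 58.7 for peaks found in 1 list. Recurrent peaks thus ranked higher within each list, with median score percentiles of 72.9, 77.3 and 71.8 against 41.4, 41.9 and 40.3. Restricting each list to its higher-scoring 50% left 1297 shared regions and 679 member genes.

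The control peaks lay in genes more than between them. Bases were assigned to promoters (within 1 kb of a start site), exons, introns and intergenic DNA, in that order. Exons took 6.42%, 7.47% and 6.28% of the covered length in the 3 lists (6.72% ± 0.652, SD, n = 3), whereas 2.15% of the chromosomes is exon. The resulting enrichment of 3.13-fold ± 0.304 was the highest of the 4 classes. Introns held 53.5% ± 0.898 of the covered length (SD, n = 3), which was 1.53-fold their share of the chromosomes. Promoters held 2.41% ± 0.200, or 1.30-fold. Intergenic DNA held 37.3% ± 0.635, or 0.612-fold.

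All 3 libraries lay on the same side of the chromosome share in each class. The exact two-sided sign-flip permutation test gave p = 0.25 for each, the smallest value that 3 libraries allow, so none of these differences could pass 0.05. Exons made up 9.10% of the bases covered in all 3 lists, 4.24-fold their share of the chromosomes. Of the shared regions, 222 touched a promoter, 596 an exon outside promoters and 1135 only introns, while 1004 were intergenic.

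Within genes, inner exons were the most covered part. This was measured in 12329 genes of at least 10 kb with at least 4 exons, as the share of bases under peaks divided by that of the whole gene body. Inner exons reached 1.82, 2.27 and 1.87 times the gene body in the 3 libraries (1.99 ± 0.246, SD, n = 3). The last exon followed with 1.69 ± 0.0564 and the first intron with 1.26 ± 0.0552. Inner introns were at 0.868 ± 0.00633 and the last intron at 0.789 ± 0.0380. The lowest values were at the beginning of the gene, where the first exon had 0.689 ± 0.144 and the 500 bp upstream of the start 0.588 ± 0.0261.

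**Figure D1:**
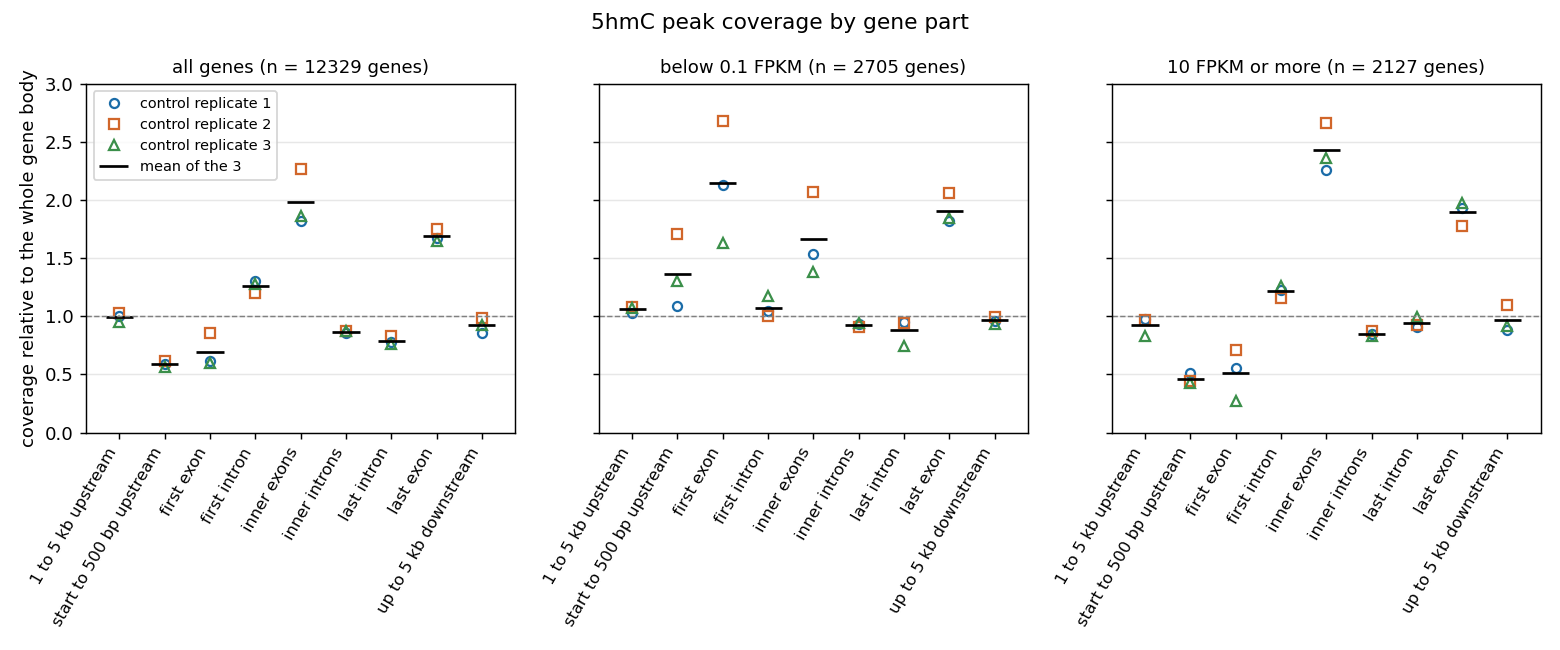
Coverage of 9 gene parts by 5hmC peaks, relative to the whole gene body (vertical axis, no unit; dashed line at 1), for all genes of at least 10 kb with at least 4 exons (left), those below 0.1 FPKM (middle) and those at 10 FPKM or more (right). Each symbol is 1 control library and each bar the mean of the 3. Inner exons lie above 1 in every panel, and the first exon lies above 1 only in the middle panel.

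The first exon and its upstream flank differed with expression, whereas inner exons lay above the gene body in each class. In 2127 genes at 10 FPKM or more, inner exons reached 2.43 ± 0.212 and the first exon 0.515 ± 0.225. In 2705 genes below 0.1 FPKM, inner exons reached 1.66 ± 0.364, but the first exon reached 2.14 ± 0.525 and the 500 bp upstream 1.37 ± 0.318. In each of the 3 libraries the first exon was above 1 in the silent genes and below 1 in the expressed ones.

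Of 140561 inner exons, 315 in 275 genes lay entirely under peaks in all 3 lists, against 5 first exons and 6 last exons of 12329 each. Long exons are harder to cover whole: the last exons added up to 19.9 Mb, nearly as much as the 21.3 Mb of the far more numerous inner exons, so these counts do not compare exon positions. Ctnnb1, the gene of beta-catenin in cell junctions and Wnt signalling, had the most, with 5 of its 15 exons. It was singled out after its value was seen. A single stretch of 2282 bp (chr9:120858929-120861210) ran from intron 1 to intron 6 of Ctnnb1 and held exons 2 to 6. Peaks covered 8.80%, 9.17% and 12.8% of the Ctnnb1 body in the 3 lists, and its RNA was at 73.3 FPKM.

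Member genes were long and moderately expressed. Their median length was 83.9 kb, against 29.2 kb for the other genes of at least 10 kb, and their median expression 4.62 FPKM against 1.59 FPKM. The share of genes that were members was 4.53% at 10 to 30 kb, 11.2% at 30 to 100 kb and 29% at 100 kb or more, so membership moved with the length of the gene. Peaks covered a median of 3.10% of a member's body, with a range from 0.183% to 33.8%. By comparison, 36.8% of genes of at least 10 kb had no peak in any list.

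The share of the gene body under peaks was highest in A730008H23Rik, which overlaps Hjurp, the third in rank. A730008H23Rik (chr1:90161403-90174132) had 27.5%, 37.3% and 36.5% of its 12.7 kb under peaks (33.8% ± 5.45, SD, n = 3). Hjurp, which encodes the chaperone that loads the centromeric histone, had 18.7%, 25.4% and 24.9%. The genes shared 1 stretch of 3301 bp covered in all 3 lists (chr1:90170222-90173522), 25.9% of A730008H23Rik and 17.6% of Hjurp, which held exon 3 and parts of its flanking introns in either model. Both genes had little RNA, at 0.505 and 0.597 FPKM. The peaks scored 128, 61.3 and 53.7 in the 3 lists, against median scores of 61.1, 63.9 and 61.8 over all peaks. With the higher-scoring 50% of each list the coverage was 9.16% in A730008H23Rik and 6.23% in Hjurp.

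Entpd4, a nucleotidase of the Golgi and lysosome, ranked second (chr14:69955208-69984799). Its coverage was 31.8%, 18.5% and 29.1%, with the lowest value in control replicate 2, the library with most peaks. A stretch of 2901 bp within intron 1 of Entpd4 was covered in every list, as was a second one of 1261 bp over exons 7 and 8. Entpd4 was expressed at 17.5 FPKM.

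Dad1, a subunit of the oligosaccharyltransferase that starts N-glycosylation, was covered about evenly in the 3 lists. Its values of 19.9%, 18.5% and 20.7% (19.7% ± 1.12, SD, n = 3) nearly coincided across libraries. It held 3 shared regions in 18.4 kb, within intron 1, over exon 2 and over the last exon. Its RNA was at 37.0 FPKM, the highest among the 20 most covered genes.

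Mettl21a, a lysine methyltransferase of chaperone proteins, had 8.71%, 31.3% and 22.8% and was among the least even. Ackr3 had 16.6%, 26.6% and 14.3% under peaks. The stretch of 1565 bp in Ackr3 that all 3 lists covered ran from intron 2 into its last exon, 10.4 kb from the start whose sequence is printed above. Rer1, a sorting receptor that returns proteins to the endoplasmic reticulum, had 13.9%, 21.3% and 20.3%. Its shared stretch lay over exons 6 and 7, the end of the gene. With the higher-scoring 50% of peaks its mean coverage was 9.47%.

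Hey2 had 16.8%, 18.8% and 18.6%, a spread of 1.11 (SD, n = 3) around 18.1%. Its shared stretches were 738 bp within exon 5, its last exon, and 686 bp within intron 3, so the CG-rich window printed above lay outside them. Pcdh1, a cell-adhesion protocadherin, had 16.5%, 18.7% and 13.0%. Its stretch of 1671 bp covered in every list reached its last exon. Tada2b, an adaptor of histone acetyltransferase complexes, had 14.4%, 14.9% and 15.6%. The 1490 bp of its intron 1 covered in every list were 14.0% of the gene. Hey2 and Tada2b, like Dad1, differed little between the pools.

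Also among the 20 most covered genes were Ccr7, Coch, Zfp866, Cstad, Adcy6, Ccdc126, Sfi1, Gm10804 and Fastkd3. Their mean coverage ran from 16.1% in Ccr7 to 13.6% in Fastkd3. With the higher-scoring 50% of peaks, Zfp866 had 2.41% in place of 14.8% and Fastkd3 6.28%. Gm10804 was the least even, with 2.86%, 23.0% and 15.2%. Sfi1, a centrosomal protein gene, overlaps Pisd-ps1 and Pisd-ps3, and whether its peaks share reads with near-identical copies was not tested. Just outside the 20, Psmd3 had 13.6% and Chmp4b 13.5%.

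**Figure D2:**
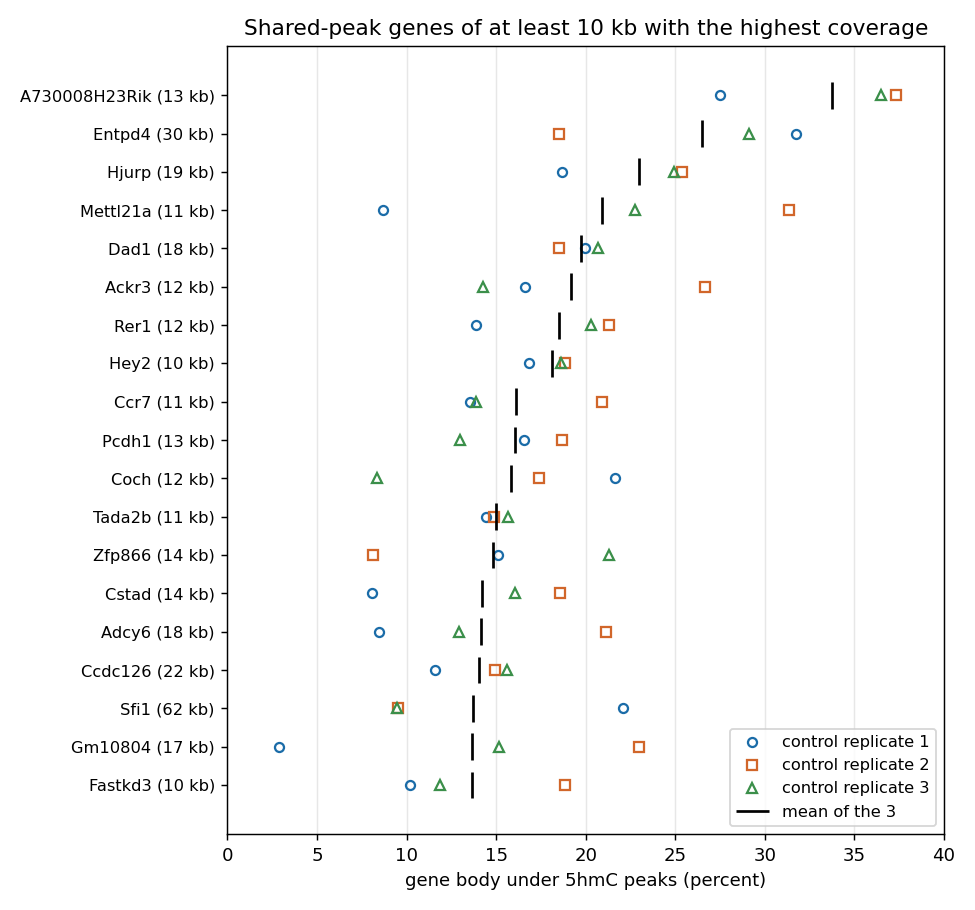
Share of the gene body under 5hmC peaks (horizontal axis, percent) in 19 of the 20 member genes with the highest mean, with gene length in parentheses. Each symbol is 1 control library and each bar the mean of the 3. A730008H23Rik leads at 33.8%, Dad1, Hey2 and Tada2b show the closest agreement between libraries, and Mettl21a and Gm10804 the widest spread.

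A share of the body favours short genes: 19 of the 20 were under 30 kb. Members were therefore also ranked within longer classes, a choice made after the values were seen. At 30 to 100 kb, Chmp4b, a core subunit of the ESCRT-III membrane-cutting complex, followed Sfi1. Chmp4b had 13.9%, 13.8% and 12.7% under peaks, including 2787 bp around exon 2, and its RNA was at 50.9 FPKM. Pcmt1, which repairs damaged aspartyl residues in proteins, had 11.2%, 15.6% and 6.39%. Its bases covered in every list lay in intron 1.

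At 100 kb or more, Fnip2, a partner of folliculin, led with 6.44%, 6.85% and 8.93%, and all 3 of its shared regions lay in intron 1. Akap7, an anchor of protein kinase A, had 6.22%, 10.3% and 5.26%. Its longest stretch covered in every list, 1654 bp, lay in intron 1 as well.

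Most members, 1228 of 1472, held 1 shared region, and 54 held at least 3. Exoc4, a subunit of the exocyst that tethers secretory vesicles, had the most with 6 over 724 kb. These lay in introns 5, 9, 11 and 17 and around exon 3, and their joint length was 0.644% of the gene. Ptprm, a receptor tyrosine phosphatase, and Tnik, a kinase of Wnt signalling and synapses, had 5 each. The genes with 4 were Ano6, Ctnnd2, Focad, Pde4d, Plcb1, Sgip1 and Slc9a9. Sgip1, an endocytic adaptor of the brain, had the smallest spread of these relative to its mean, with 5.42%, 5.65% and 3.94% of 213 kb.

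The longest single stretch was 3345 bp in intron 1 of Sema6a, a transmembrane guidance molecule. After the stretches in A730008H23Rik with Hjurp, Entpd4 and Chmp4b came Uaca with 2577 bp, Pik3r1 with 2461 bp, Bptf with 2421 bp and Ski with 2409 bp. In Pik3r1, the regulatory subunit of phosphoinositide 3-kinase, the stretch lay in intron 2. In Ski, a repressor of TGF-beta signalling, all 3 shared regions lay in intron 1, and peaks covered 7.32%, 10.3% and 9.81% of the gene.

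Coverage of the gene body was higher in expressed genes in all 3 libraries. Genes below 0.1 FPKM had 0.575%, 1.17% and 0.555% of the body under peaks in the 3 libraries (0.767% ± 0.350, SD, n = 3, mean of 3088 genes). Those at 10 to 100 FPKM had 1.67%, 2.96% and 1.66% (2.097% ± 0.749, SD, n = 3, mean of 2163 genes). The ratio of these classes was 2.91, 2.53 and 2.99 (2.81 ± 0.244), so each library showed the same direction by a similar amount. The exact two-sided sign-flip permutation test of its log2 value gave p = 0.25, the smallest that 3 libraries allow.

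The classes between were in order, at 1.29% for 0.1 to 1 FPKM and 1.84% for 1 to 10 FPKM. The 70 genes at 100 FPKM or more had 1.98% ± 0.938 (SD, n = 3), which did not go beyond the class below it. The share of members was 3.59%, 7.56%, 13.9%, 17.7% and 14.3% in the 5 classes from lowest to highest. Gene length differed too, with medians from 24.9 kb below 0.1 FPKM to 38.4 kb at 10 to 100 FPKM. Within classes of length the ratio was 2.93 ± 0.246 at 10 to 30 kb, 3.15 ± 0.338 at 30 to 100 kb and 2.40 ± 0.0357 at 100 kb or more.

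**Figure D3:**
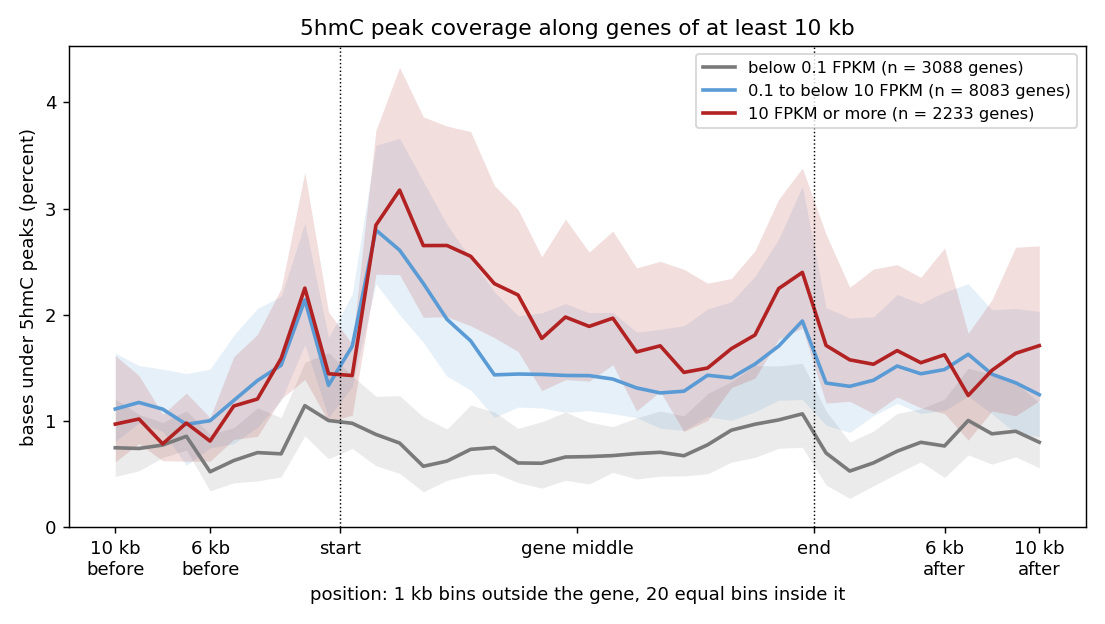
Share of bases under 5hmC peaks (vertical axis, percent) along genes of at least 10 kb and 10 kb on either side, in 3 expression classes. Lines are means of the 3 control libraries and bands run from the lowest to the highest library. Within the body, genes at 10 FPKM or more are lowest in the first of 20 bins at 1.43%, highest in the third at 3.17% and at 2.40% in the last, whereas genes below 0.1 FPKM stay between about 0.5% and 1.2% throughout.

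The rise within the body began just inside the gene. In genes at 10 FPKM or more, the first of 20 equal body bins had 1.43% under peaks, the third 3.17% and the last 2.40%. In genes below 0.1 FPKM these bins had 0.978%, 0.792% and 1.07%. The bands of the 2 classes overlapped at the start and were apart in the third bin.

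Around start sites the order was the reverse in all 3 libraries. Within 500 bp of the start, genes below 0.1 FPKM had 0.672%, 1.85% and 0.706% of bases under peaks, and genes at 10 to 100 FPKM had 0.489%, 0.816% and 0.359%. The ratio of expressed to silent genes was 0.728, 0.441 and 0.509 (0.559 ± 0.150, SD, n = 3), below 1 in every library. The 70 genes at 100 FPKM or more had 0.269%, 0.0150% and none, so control replicate 3 had no peak base at their starts. In genes at 10 FPKM or more, coverage near the start was 0.371, 0.349 and 0.268 times that of the body (0.329 ± 0.0542, SD, n = 3, exact sign-flip permutation p = 0.25). With a window of 1 kb in place of 500 bp this value was 0.629.

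The dip was narrow. In genes at 10 FPKM or more, coverage was 2.71% ± 0.978 at 1.125 kb upstream, 0.311% ± 0.170 at 0.125 kb downstream and 1.81% ± 0.363 at 1.125 kb downstream (SD, n = 3). In genes below 0.1 FPKM the same 3 positions had 1.21% ± 0.437, 1.11% ± 0.720 and 1.11% ± 0.350. The libraries differed there: control replicates 1 and 3 went from 1.02% and 0.899% upstream to 0.750% and 0.647% near the start, while control replicate 2 went from 1.71% to 1.94%.

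**Figure D4:**
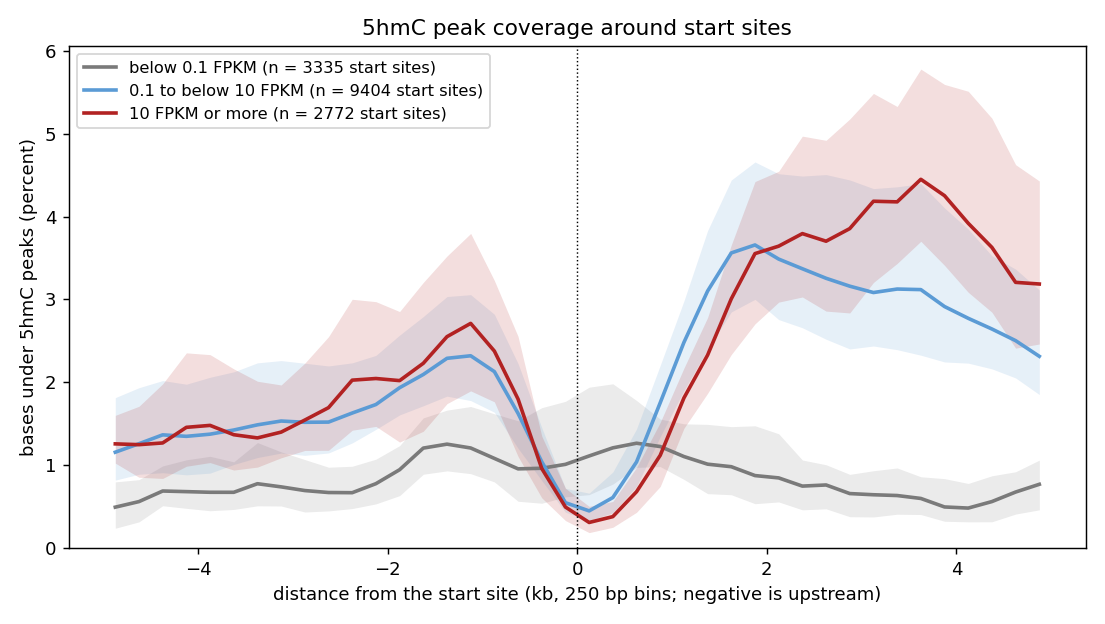
Share of bases under 5hmC peaks (vertical axis, percent) against the distance from the start site (horizontal axis, kb), in bins of 250 bp and 3 expression classes. Lines are means of the 3 control libraries and bands run from the lowest to the highest library. Both expressed classes fall below the genes under 0.1 FPKM at the start site and lie above them beyond about 1 kb on either side.

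Few genes had a shared peak near a start site. Promoters held 2.84% of the bases covered in every list, 1.53-fold their share of the chromosomes. Of 22835 genes of any length, 193 (0.845%) had bases covered in every list within 1 kb of a start. The most covered was 4921511C10Rik, whose sequence is given above, with 1197 bp over exon 1 and intron 1. Fez1, a kinesin adaptor in axons, followed with 1188 bp, then Slc10a6 with 1109 bp over its first exon. Fez1 stood out in this group for its RNA, at 39.2 FPKM, while 4921511C10Rik was at 0.317 FPKM and Slc10a6 was listed at 0. The others with the most bases were 9330111N05Rik, Lsmem1, Tacr2, Adcy6, Gm16701, Trappc12 and Csf2ra, all at or below 5.01 FPKM.

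The CG content of promoters differed with expression. The median number of CG dinucleotides in the 250 bases before the start was 8 over all 8540 matched windows, 2 in genes below 0.1 FPKM and 18 in genes at 10 FPKM or more. The 60 matched genes with a shared peak at the start had a median of 13.5, with quartiles of 10 and 21, and their median expression was 2.09 FPKM. Among them, the 8 below 0.1 FPKM had a median of 5.5 and the 6 at 10 FPKM or more 23.5. Both medians were above those of all matched genes of the same expression. The share with at least 10 CG was 37.5% of the 8, against 10.3% of all matched genes below 0.1 FPKM. It went the other way at 10 FPKM or more, with 66.7% of the 6 against 85.3%, so these few genes show no common direction. The 392 matched members with no peak near the start had a median of 18. Ackr3, with 7, was poorer in CG than most of those members, and Hey2, with 22, lay above their median. The printed windows of 4921511C10Rik, with 6, and Slc10a6, with 4, lay below the lower quartile of the 60 genes with a shared peak at the start. They are thus not typical of that group.

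Some of the most abundant hippocampal RNAs came from members. Gnas, the stimulatory G protein subunit, was at 268 FPKM and had 5.50%, 5.62% and 4.84% of its body under peaks, with a shared stretch around exon 4. Serinc1, a membrane protein of serine lipid synthesis, was at 206 FPKM and had 10.9%, 9.72% and 5.21%. Syt1, the calcium sensor of transmitter release, was at 148 FPKM, but only 0.743%, 1.42% and 0.875% of its 513 kb was covered. Sptbn1, a spectrin of the membrane skeleton, was at 122 FPKM and had 3.18%, 5.11% and 3.91%, including 1950 bp around exon 3. The other members among the 10 with the most RNA were Arf3, Ywhaz, Gpm6a, Klc1, Atp6v1e1 and Nptn, with mean coverage from 0.586% in Gpm6a to 7.49% in Klc1.

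Other abundant RNAs came from genes whose body held no peak of any control list. Calm2, one of the calmodulin genes, was at 547 FPKM, Atp1b1, a sodium pump subunit, at 465 FPKM, and Hpca, the neuronal calcium sensor hippocalcin, at 318 FPKM. Others were Ywhae, Itm2c, Vdac1, Scd2, Aplp1 and Eno1b, all at 129 FPKM or more. Itm2c did have a peak within 1 kb of its start, outside the body. Eno1b has 2 loci in the gene models and overlaps Eno1, and whether reads could be placed there uniquely was not tested. Ywhaz and Ywhae encode close relatives of the 14-3-3 family and are of similar length, 26.7 and 33.0 kb. Ywhaz had 3.36%, 2.89% and 3.38% under peaks, with its shared stretch in intron 1, and Ywhae none in any list.

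Conversely, 111 members were below 0.1 FPKM. Ccr7, a chemokine receptor of lymphocytes and dendritic cells, was listed at 0 and had 13.5%, 20.9% and 13.9% under peaks. Its shared stretch of 1364 bp reached its last exon. Kcne1, a potassium channel subunit of heart and inner ear, was at 0.021 FPKM and had 9.44%, 9.31% and 10.1%. Its shared stretch lay over its last exon. Ppp1r3b, a glycogen-targeting phosphatase subunit of liver, was at 0.046 FPKM and had 8.81%, 17.0% and 9.62%. Its shared stretch lay within exon 2. Tacr2, a tachykinin receptor, was at 0.042 FPKM and had 7.84%, 8.25% and 7.05%, with its shared stretch over its start site. The rest of the 10 were Gm10804, A3galt2, A730018C14Rik, BC051537, Abcg5 and Car6.

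Among genes under 10 kb, 141 of 9431 (1.5%) had bases covered in every list. Snora20 and Snord37 were wholly covered, but these small nucleolar RNA genes are 61 and 53 bp long. Of the protein-coding ones, Pelo, a ribosome rescue factor, had 71.5%, 60.5% and 59.0% of its 1.80 kb under peaks. Tram1l1 had 65.2%, 62.6% and 58.5%, and Sephs2, a selenium metabolism enzyme, 60.3%, 56.5% and 54.5%. Tram1l1 and Sephs2 consist of a single exon, and the covered stretches lay within it. The other 5 were 4930583K01Rik, Tigd2, 1700064M15Rik, Isyna1 and Eid2, at 50.4% to 56.3%.

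Gene groups were compared by the number of members and by mean body coverage divided by that of all 13404 genes. The overall member share is 11%, or 29% at 100 kb or more, and the median coverage over all genes is 0.915%. No test was made of the groups, and their lengths differ.

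**Figure D5:**
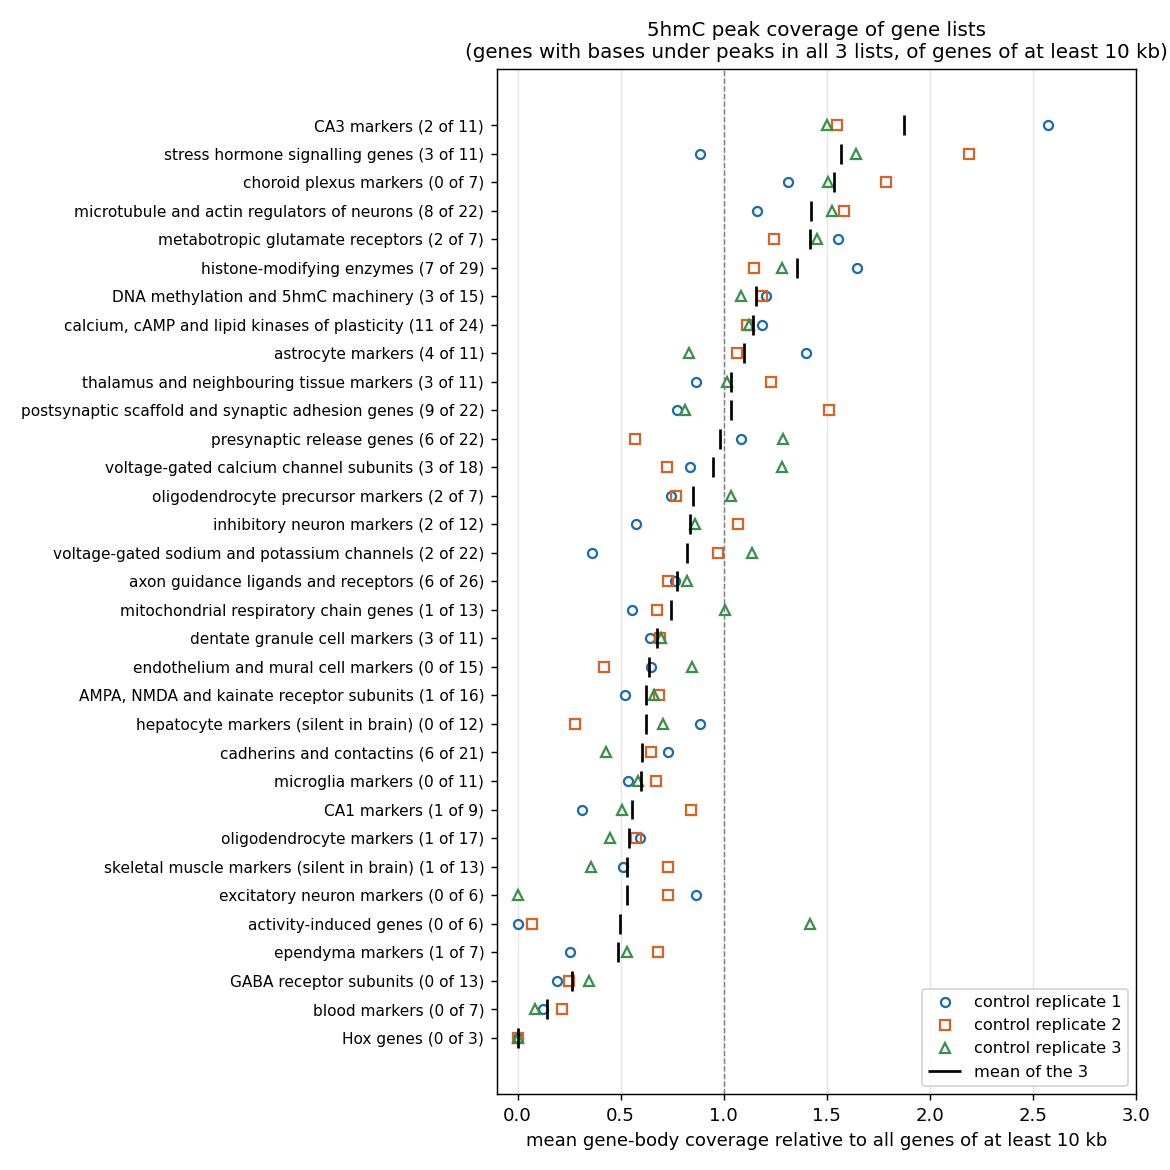
Mean gene-body coverage by 5hmC peaks divided by that of all 13404 genes (horizontal axis, no unit; dashed line at 1) for 33 gene lists, with members of genes of at least 10 kb in parentheses. Each symbol is 1 control library and each bar the mean of the 3. GABA receptor subunits, blood genes and Hox genes lie at the low end in all libraries.

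Genes of intracellular signalling and of the cytoskeleton held 19 members between them. Of 24 kinase, cyclase and phosphodiesterase genes of plasticity 11 were members (relative coverage 1.14 ± 0.0401, SD, n = 3, median 1.76%, median length 236 kb). Prkce, protein kinase C epsilon, had 2.28%, 3.87% and 2.58%, and Prkacb, a catalytic subunit of protein kinase A, 4.03%, 2.60% and 1.50%. Camk2a and Camk2b, the main CaMKII genes of the forebrain, had no base covered in every list. Camk2a had 2.24% covered in control replicate 2 only. Of 22 microtubule and actin regulators 8 were members (1.42 ± 0.228, median 1.92%, median length 141 kb), led by Sptbn1 and the guanine nucleotide exchange factor Trio at 3.11%, 4.76% and 2.02%. Kif5a and Map1b, at 171 and 114 FPKM, were not members.

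Synaptic genes of both sides of the cleft held members. Of 22 postsynaptic and adhesion genes 9 were members (1.03 ± 0.414, median 1.40%, median length 347 kb). Ctnnd2, delta-catenin, had 2.18%, 3.72% and 2.72%, and Nrxn2, a presynaptic neurexin, 3.17%, 3.19% and 1.84%. Dlg4, the gene of PSD-95, and Shank1 were not members. Of 22 presynaptic release genes 6 were members (0.981 ± 0.371, median 0.914%), among them Unc13a, a vesicle priming factor, with 3.50%, 4.09% and 3.52%, and Syn3. Snap25 and Cplx2, at 472 and 140 FPKM, were not.

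The groups of ionotropic glutamate receptors and of GABA receptors had little coverage. Of 16 AMPA, NMDA, kainate and delta receptor genes, Grid1, a delta subunit, was the only member (0.622 ± 0.0885, median 0.786%, median length 348 kb). Gria2 and Gria1, at 132 and 84.2 FPKM, were not members. None of 13 GABA receptor genes was a member (0.263 ± 0.0783, median 0.133%, median length 102 kb), though 10 of them were at 10 FPKM or more, and Gabbr1 at 73.1 FPKM had no peak in any list. Gabbr2, like Gabbr1 a subunit of the metabotropic GABA-B receptor, had 1.54%, 3.64% and 2.16% without a base covered in every list. These values were above the means over all genes of 1.22%, 2.23% and 1.17%. Of 7 metabotropic glutamate receptors, Grm2 and Grm5 were members (1.42 ± 0.159, median 0.574%). Grm2, a presynaptic autoreceptor, stood out with 9.53%, 13.5% and 7.80% of 11.6 kb, whereas Grm3 was not a member.

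Members among 18 calcium channel subunits were 3 (0.948 ± 0.294, median 1.14%), with Cacnb4 at 1.65%, 2.73% and 3.66% and Cacna1i next, and Cacna2d1 and Cacna1e were not members. Among 22 sodium and potassium channels they were 2, Kcnd3 and Kcnq3 (0.823 ± 0.408, median 0.879%). Of 26 axon guidance genes 6 were members (0.772 ± 0.0474, median 0.844%). They included Ntn1, the guidance cue netrin, at 2.61%, 6.06% and 1.73%, and Ephb1, but neither Epha4 nor Epha7. Of 21 cadherins and contactins 6 were members (0.601 ± 0.153, median 0.478%), led by Cntn1 and Cdh4, while Cntnap1 and Cdh8 were not members. The median length of the last group, 414 kb, was the longest of all.

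Genes that write and read cytosine modification were near the overall value. Members were 3 of 15 (1.16 ± 0.0645, median 0.922%). Uhrf2, a binder of 5hmC, had 6.18%, 4.44% and 3.82%, and the methyltransferase genes Dnmt3b and Dnmt3a had mean coverage of 2.75% and 2.22%. Mbd2 and Mbd5 were not members. None of the TET genes was a member. Tet3 had 0, 6.86% and 1.70%, Tet2 0, 1.48% and 1.29%, and Tet1 0, 2.04% and 0, so control replicate 1 had no peak in any of them.

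Of 29 histone-modifying enzymes 7 were members (1.36 ± 0.260, median 1.43%). Kdm6b, a demethylase of histone H3 lysine 27, had 7.69% to 13.0% in the 3 libraries, and Kat6a, an acetyltransferase, 4.10% to 9.83%. Hdac2 and Hdac11 were not members, and Hdac2 had no peak in any list. Among 11 stress hormone signalling genes Sgk1, Crhr2 and Nr3c2 were members (1.57 ± 0.656, median 2.22%). The glucocorticoid-induced kinase gene Sgk1 had 2.05%, 5.19% and 4.28%. The receptor gene Nr3c1 had 1.89%, 1.48% and 1.33%, and the cochaperone gene Fkbp5 2.99%, 2.42% and 3.22%, but neither had a base covered in every list. Klf9 and Hsd11b1 were not members either.

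Activity-induced and housekeeping genes were mostly short, and 4.53% of all genes of 10 to 30 kb were members. None of 6 activity-induced genes of at least 10 kb was a member (0.496 ± 0.799, median 0.693%), Homer1 and Bdnf included. Control replicate 3 carried that mean, with relative coverage of 0, 0.0695 and 1.42 in the 3 libraries and 0.0347 without it. The 27 matched ribosomal protein genes were all under 10 kb. Of 13 mitochondrial respiratory chain genes, Ndufs1 was the only member (0.746 ± 0.233, median 1.43%), at 3.38%, 2.27% and 2.00%, and Cox5a was not. The 3 Hox genes of at least 10 kb had no peak in any list. Among groups of other tissues, none of 12 hepatocyte genes (0.622 ± 0.312, median 0) and none of 7 blood genes (0.141 ± 0.0665, median 0) was a member. Of 13 skeletal muscle genes Neb was the only member (0.532 ± 0.188, median 0.829%).

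Markers of hippocampal fields and neurons followed. Of 11 CA3 markers Coch and Tyro3 were members (1.87 ± 0.607, median 1.28%). Coch, at 15.8% on average, lay far above the list mean of 2.78% and raised it. Tyro3, a receptor kinase, had 5.19%, 5.13% and 5.23%, nearly all within 1 stretch of 988 bp. Chgb and Cpne7 were not members. Of 11 dentate markers 3 were members (0.676 ± 0.0289, median 0.444%), Stxbp6, Npnt and Glis3, while Prox1 had no peak and Ahcyl2 no shared base. Of 9 CA1 markers Man1a was a member (0.555 ± 0.267, median 0.792%), and Wfs1 and Mpped1 were not. None of 6 excitatory neuron markers was (0.532 ± 0.466, median 0.582%), Camk2a and Slc17a7 included. Of 12 inhibitory neuron markers Cnr1, the cannabinoid receptor gene, and Sox6 were (0.836 ± 0.248, median 0), but not Gad1.

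Of 11 astrocyte markers 4 were members (1.10 ± 0.285, median 0.381%). Gja1, the gap junction protein connexin 43, had 8.54%, 7.35% and 7.53% and Slc4a4 had 2.29%, 5.08% and 0.825%, whereas Slc1a2, at 258 FPKM, was not a member. Of 17 oligodendrocyte markers Dock10 alone was a member (0.539 ± 0.0801, median 0.112%), and Mbp, at 799 FPKM, had 2.22%, 5.40% and 0.761% without a shared base. Qk was likewise no member. Precursor markers had 2 members of 7, Tnr and Lhfpl3 (0.849 ± 0.162, median 1.44%), but not Bcas1 or Pdgfra.

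Markers of rarer cell types were mostly genes under 100 kb, of which 4.53% (10 to 30 kb) and 11.2% (30 to 100 kb) were members overall. There were none of 11 for microglia (0.598 ± 0.0695, median 0.873%), of 15 for endothelium and mural cells (0.637 ± 0.212, median 0.509%) and of 7 for choroid plexus (1.54 ± 0.239, median 1.76%). Ctss, Rgs5, Slc2a1, Enpp2 and Kl were among the most expressed of these. Ependyma had 1 member of 7, Spag17 (0.490 ± 0.217, median 1.08%), and not Rsph1 or Dynlrb2. Thalamic markers had 3 of 11, Plekhg1, Tcf7l2 and Rora (1.04 ± 0.184, median 1.86%), and not Calb2 or Ptpn3.

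Of the shared regions, 34.0% lay between genes. They were a median of 31.1 kb from the nearest gene, against 34.3 kb for regions of 1 list. The highest-scoring shared regions were all intergenic. The first, at chr9:35112320-35113432, scored 1845, 2002 and 2131 in the 3 lists and lay 19.3 kb from 4933422A05Rik. The next, at chr2:98506240-98507912, scored 1930, 1412 and 1378 and lay 1034 kb from Lrrc4c. Others lay at the low end of their chromosomes' coordinates, at chr9:2999876-3001832, chr12:3109740-3110465 and chr4:3016509-3018642. Whether these intergenic regions collect reads from near-identical copies elsewhere was not tested, so their scores do not rank them by the mark. The highest-scoring shared region inside a gene was the twelfth, in an intron of Mdga2, a synaptic adhesion gene, with 352, 411 and 681.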

How the data were processed

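5hmC was captured chemically from 10 µg of sonicated DNA per library and read as 50-nt single ends, giving 25 to 35 M uniquely mapped reads per library per the labels' protocols. The deposited peak lists (mm9) give each peak's position and the authors' score of at least 50. The peak caller's version and the input library are not given in the sources used here, while Bowtie 0.12.9 is named in the submitters' processing notes. The authors' FPKM values (TopHat 1.0.12 and Cufflinks 2.1.1, per the submitters' processing notes) stand in the attribute text of 1 deposited gene model file for the pooled controls, with 33262 transcripts. They were read from that text and summed over the isoforms of a gene.

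Peaks were merged and intersected in Python 3.11.15 with numpy 2.4.6 and pandas 2.3.3. Genes named are those highest in coverage (20), shared regions, stretch length, FPKM, start-site bases, coverage below 0.1 FPKM, coverage under 10 kb or FPKM without a peak (10 each), and 2 members and 2 non-members of each of the 34 lists. Some genes that meet this rule are not reported here. The members and lists were chosen with earlier results of these data known. The 3 libraries are separate pools of mice and their spread includes technical error. No mm9 genome was used, so chromosome lengths end at the last annotated or covered base. Promoter windows were matched by symbol, strand, a single start site and gene length within 50 bp. Ratios and shares were tested over the 3 libraries by an exact two-sided sign-flip permutation test. On simulated lists over the 22835 genes, 200 of 200 planted shared regions were recovered. Read depth under single peaks is unknown. Alternatives tried concerned the peaks used, their extent, the overlap, the promoter and start windows, the gene length, the expression classes and each library left out.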

Additional observations from a re-analysis of the deposited data

Results flagged for a closer look

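Peaks outside chromosomes 1 to 19 entered no comparison above. Chromosome X carried 4, 12 and 10 peaks in the 3 control lists, or 0.0240, 0.0721 and 0.0601 per Mb, whereas the autosomes carried 5.41 to 8.25, 9.51 to 14.1 and 5.53 to 7.89 per Mb in the same lists. Chromosome Y carried 6, 7 and 14 peaks. The mitochondrial chromosome carried 3, 4 and 1 peaks in the same lists. All 3 libraries came from male mice, and no source used here says how the lists were filtered by chromosome.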

How the results depend on the processing

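No paired analysis was possible because the 3 control 5hmC lists are 1 group and the RNA is 1 pooled table. The class shares and both ratios kept their direction under each alternative run. With the higher-scoring 50% of peaks, 1297 shared regions, 1.29 Mb covered in every list and 679 member genes were left, since fewer peaks entered. With 500 bp around each peak centre, 0.928 Mb was covered in every list. Counting genes with a peak of each list anywhere gave 2984. Leaving out each library, so that both others sufficed, gave 4658 to 6797 shared regions, 4.36 to 6.62 Mb and 2103 to 2801 genes. With the higher-scoring 50%, relative coverage was 1.66 for metabotropic glutamate receptors, 0.974 for kinases of plasticity, 0.695 for axon guidance genes, 1.09 for DNA methylation genes, 0.748 for dentate, 0.534 for astrocyte, 0.333 for oligodendrocyte, 1.22 for oligodendrocyte precursor, 1.91 for choroid plexus and 0.795 for thalamic markers. The cause was not tested. Of 33 lists, 8 lay above 1 in at least 1 setting and below it in another, so their direction against all genes turned. The ratio of expressed to silent genes ranged from 2.16 (silent below 1 FPKM) to 3.01 (higher-scoring 50%). Of the 20 most covered genes, 10 stayed with the higher-scoring 50%, 8 with peak centres, 2 with genes of at least 5 kb, 4 with genes of at least 20 kb and 11 to 13 without 1 library. Leaving out the 1% highest-scoring peaks, an alternative chosen after seeing the data, kept 18 of them. The depth of the lists limits what is absent: a gene without a peak may hold 5hmC below the score of 50.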
